A study of Homo sapiens with 8 samples.

Results

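Expression of 59 genes of the distal short arm of chromosome 8 (8p) was examined in xenografts, which are tumours grown in mice from human cells. The genes run from FBXO25 to SLC25A37 (chromosome 8, 406428 to 23575463, GENCODE 29 on GRCh38), a span of 23.2 Mb. They are 59 of the 59050 gene symbols counted, and all 59 were found in the files. The list was drawn up because an earlier scan of these same tumours had found that neighbouring genes of this stretch were lower in knockout tumours. The fold changes between the groups therefore chose the members. They are given here as a description. The calls and intervals of members below come from the fit over all genes on this same contrast, so they are no independent test of the members. The question was which genes follow the common shift and which depart from it.

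H2122, a cell line established from a human lung cancer, supplied the tumour cells. The 4 parental tumours carried the unmodified line (genotype WT), and the 4 knockout tumours came from cells in which SMARCA4 had been knocked out. All 8 tumours were treated with vehicle. The sources used here do not state the guide, whether the knockout line was 1 clone or a pool, or the strain and age of the host mice. Nothing in the labels says that the tumours of a group came from separate cultures or animals, so the errors given measure the spread between these samples.

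SMARCA4 encodes BRG1, an ATPase that moves nucleosomes within the SWI/SNF chromatin remodelling complexes. The genes of distal 8p have no common pathway. They encode lysosomal enzymes, RNA-processing factors, signalling proteins, cytoskeletal proteins and secreted proteins, and what they share is their place on the chromosome. The short arm of chromosome 8 is known as a region that is often lost in epithelial cancers. DNA copy number was not analysed here.

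Gene counts ranged from 19785922 to 23191698 per library, and no pair of libraries was identical. SMARCA4 itself checked the labels. It was at 220.4 CPM, 229 CPM, 198 CPM and 235 CPM in parental replicates 1 to 4 and at 29.6 CPM, 26.2 CPM, 22.3 CPM and 31.1 CPM in knockout replicates 1 to 4 (CPM, the count scaled to library size). Its log2 fold change was -3.02 (SE 0.117, adjusted p = 1.45e-07 by edgeR's quasi-likelihood test), so that 12.4% remained. As a check of the cell type, 7 epithelial markers were all detected, with a summed level of 6214 to 7314 CPM in the parental group and 4824 to 6475 CPM in the knockout group. All 4 knockout tumours lay below all 4 parental ones for KRT7, KRT19 and CLDN4 (for CLDN4, 190.0 to 238 CPM against 385 to 458 CPM) and EPCAM, while the groups overlapped for KRT8, KRT18 and CDH1. Of 4 lung lineage markers, NKX2-1 and SFTPC had no count in any tumour.

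Most members were lower in knockout tumours, by amounts that differed from gene to gene. Of the 59, 53 passed the filter on low counts, and 24 of these lay within 0.2 of their median. Their median log2 fold change (knockout minus parental) was -0.54, with quartiles at -0.75 and -0.32, which corresponds to 68.6% of the parental level. The median over all 16219 genes tested was 0.00345. Negative values numbered 46 of 53. By the call used over all genes (edgeR adjusted p under 0.05), 35 members were lower and 3 were higher, beside a background of 14.1% of all tested genes called lower and 13.0% called higher (27.0% in either direction). Without knockout replicate 2, 1 member was called higher. The members were selected on this contrast, so nothing is read from that comparison. In bulk tumours, fewer cells that express a gene and less RNA per cell cannot be told apart.

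**Figure D1:**
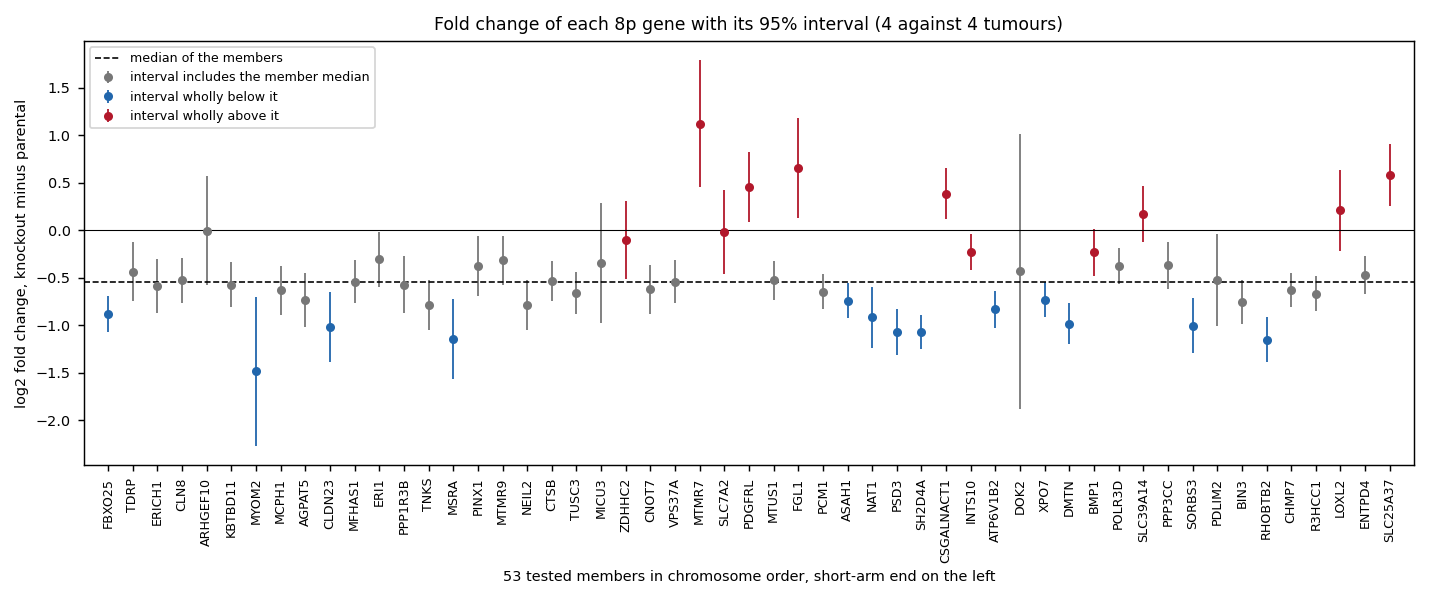
Log2 fold change (knockout minus parental) of the 53 tested 8p genes, in chromosome order, with 95% intervals from the fit on 4 against 4 tumours; the dashed line is the members' median of -0.54. Grey points, 29 genes, have intervals that include the median, blue points, 13 genes, lie wholly below it and red points, 11 genes, wholly above it.

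Each tumour carried the shift. The median over the tested members of the log2 CPM minus its parental mean was 0.02, -0.03, -0.05 and 0.02 in parental replicates 1 to 4. In knockout replicates 1 to 4 it was -0.51, -0.58, -0.50 and -0.66. The genes were chosen on this contrast, so the gap between the groups is a description. Within a group the tumours were close, with a mean of -0.0099 ± 0.032 for the parental group and -0.56 ± 0.072 for the knockout group (SD, n = 4 each). The same measure over the 473 tested genes on the rest of chromosome 8 was -0.00093 ± 0.066 and -0.082 ± 0.042 (SD, n = 4 each). Single knockout tumours had 39 to 41 of the 53 members below the lowest parental value. The share over all tested genes was not computed for single tumours, so nothing is read from that count. In 35 members all 4 knockout values lay below all 4 parental values, and in 2 members all lay above, beside 15.3% and 14.0% of all tested genes.

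**Figure D2:**
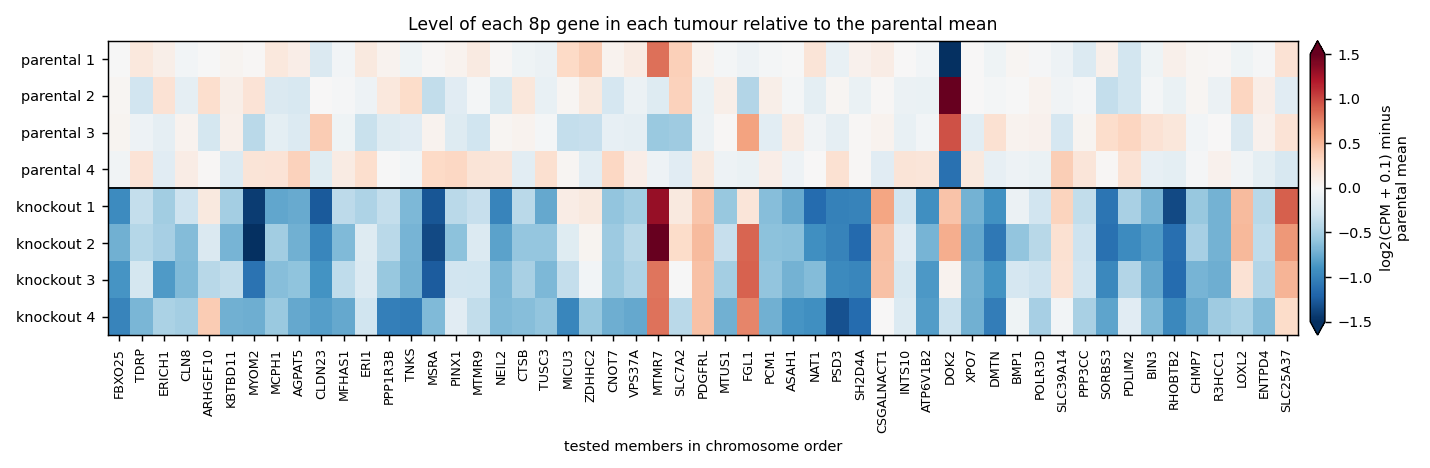
Level of the 53 tested 8p genes (columns, chromosome order) in each tumour (rows), as log2(CPM + 0.1) minus the parental mean, with colours ending at -1.5 and 1.5. The 4 knockout rows are blue for most genes and red for a few that are shared by all 4 rows, such as MTMR7 and SLC25A37; DOK2 varies most among the parental rows.

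The shift did not run along the stretch as a slope. Members that start in the first 5 Mb had a median log2 fold change of -0.57 (7 tested), those from 5 to 10 Mb -0.63 (7), from 10 to 15 Mb -0.53 (5), from 15 to 20 Mb -0.53 (17) and from 20 to 25 Mb -0.53 (17). What differed along the stretch was the presence of members that departed upward. Each member's 95% interval was compared with the median of the members. Among the 19 tested members that start before 15 Mb, none had an interval wholly above the median, and among the 34 that start beyond it 11 had. Downward departures lay on both sides, and 4 of the 13 members with intervals wholly below the median start before 15 Mb. Across the 53 genes the fold change was nearly unrelated to the average level (Spearman's rank correlation -0.097), to the start position (0.11) and to the exon length (-0.011). These are descriptions across genes, which share libraries and are not independent replicates.

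At the end of the list nearest the centromere, values differed between neighbouring genes, as they also did inside the stretch. ENTPD4, the last member near the common shift, had a log2 fold change of -0.47, and the next and last member, SLC25A37, was at 0.58. Just outside the stretch, STC1 and ADAM28 had log2 fold changes of -0.26 and -1.91. ADAM28 was called lower and lay below every tested member. At the telomeric end, 2 tested genes lie before FBXO25, and their values were -0.36 for RPL23AP53 and -0.70 for ZNF596. The 39 other tested genes between the first and the last member, which are not on the list, had a median of -0.58, with 16 called lower (41.0%) and 1 called higher. On the rest of chromosome 8 the median was -0.086, with 99 of 473 genes called lower (20.9%). Beyond the stretch, the bin from 25 to 30 Mb held 31 tested genes with a median of 0.072, none of them called lower and 6 called higher. Medians well below 0 were also seen elsewhere on the chromosome, in bins picked out after their values were seen. The 11 tested genes from 105 to 110 Mb, on the long arm, had a median of -0.51, with 7 called lower, and the 12 from 130 to 135 Mb had a median of -0.37, with 6 called lower.

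**Figure D3:**
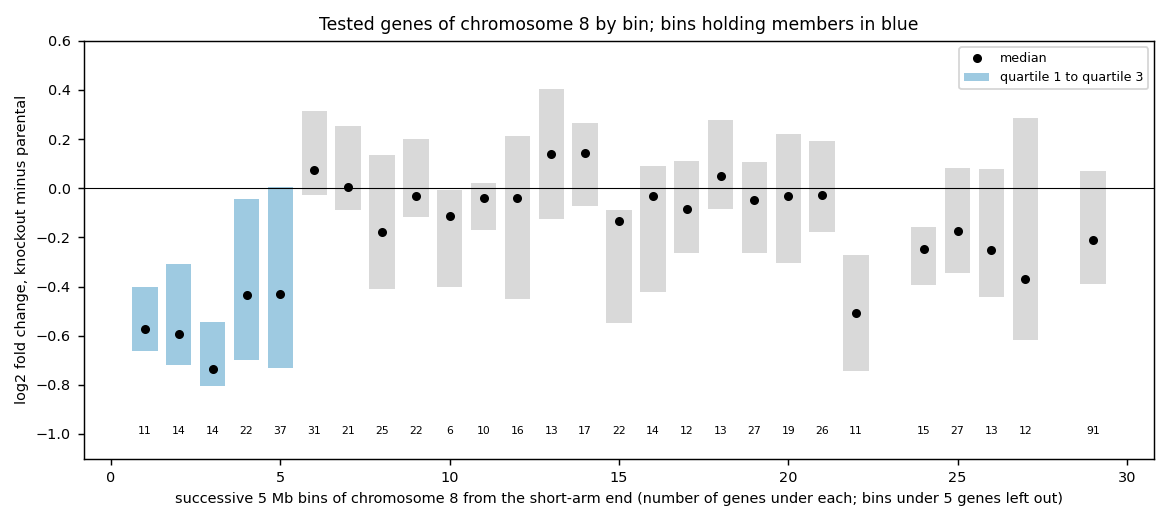
Median (points) and quartiles (bars) of the log2 fold change, knockout minus parental, of all tested genes in successive 5 Mb bins of chromosome 8, with the number of genes under each bar. The 5 blue bins hold the members and have medians from -0.74 to -0.43; the next bin is at 0.072, and a bin of 11 genes on the long arm is at -0.51.

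The members fell into 3 classes by their interval. For 29 of the 53 the interval included the median of the members, and 22 of these were called lower. In 3 of the 29 (ARHGEF10, MICU3 and DOK2) the interval was so wide that it also included 0. For 13 members it lay wholly below the median and for 11 wholly above. The intervals are per gene and are not adjusted for the number of genes. Over 16 alternative analyses the first class held 26 to 35 members, the second 7 to 15 and the third 10 to 14, and no member passed from the second to the third or back. The smallest second class, 7, came from leaving out knockout replicate 1. The smallest first class, 26, came from a filter at an average log2 CPM of at least 1, which left 49 members tested.

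Proteins of the lysosome, the secretory pathway and membrane traffic were nearly all lower. Of the 10 members, all tested, 9 were called lower and none higher, with a median of -0.59. Over all tested genes, 14.1% were called lower and 13.0% higher. The members were chosen on this contrast, so nothing about a role group is read from its calls, here or in the groups below. CTSB encodes cathepsin B, a lysosomal cysteine protease, and was the most abundant gene of the group (chromosome 8, 11842524 to 11869448, minus strand). It was at 731 CPM, 860 CPM, 796 CPM and 686 CPM in parental replicates 1 to 4 and at 577 CPM, 512 CPM, 544 CPM and 491 CPM in knockout replicates 1 to 4. The groups did not overlap, and its log2 fold change of -0.53 (SE 0.0951) was that of the members as a whole. VPS37A, a subunit of the ESCRT-I sorting complex, lay at the median itself with -0.54 (SE 0.103). Its parental values were 56.9 CPM, 49.4 CPM, 47.6 CPM and 56.0 CPM, and its knockout values were 36.3 CPM, 39.3 CPM, 37.8 CPM and 30.6 CPM, again with no overlap.

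The rest of that group stood on both sides of the median. Intervals that included it belonged to CLN8 (-0.53), an endoplasmic reticulum protein that carries lysosomal enzymes, TUSC3 (-0.66), an oligosaccharyltransferase subunit, CHMP7 (-0.63), an ESCRT-III family protein of the nuclear envelope, and ENTPD4 (-0.47), a nucleotidase of the Golgi. Deeper values were found for ASAH1 (-0.74), the acid ceramidase, ATP6V1B2 (-0.83), a subunit of the proton pump that acidifies lysosomes, and PSD3 (-1.07), an exchange factor for ARF6. ZDHHC2, a palmitoyltransferase, departed upward with -0.11 (SE 0.187). Its parental values of 10.7 to 17.7 CPM and knockout values of 9.20 to 15.2 CPM overlapped.

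Genes with nuclear roles were also close to the common level. Of 10 members, 9 were tested, 6 were called lower and none higher, and the median was -0.62. XPO7, a nuclear export receptor (chromosome 8, 21919671 to 22006585, plus strand), was the most abundant. Its values were 131 CPM, 132 CPM, 117 CPM and 145 CPM in parental replicates 1 to 4 and 80.3 CPM, 76.6 CPM, 79.9 CPM and 79.6 CPM in knockout replicates 1 to 4. The knockout tumours were nearly alike, and the log2 fold change of -0.73 (SE 0.0826) was below the median. CNOT7, a deadenylase that shortens poly(A) tails, was at -0.62, MCPH1, a protein of chromosome condensation and DNA damage signalling, at -0.63, NEIL2, a DNA glycosylase of base excision repair, at -0.79, and TNKS, the poly-ADP-ribosyltransferase tankyrase, at -0.79. POLR3D, a subunit of RNA polymerase III, was at -0.38 and was called lower. PINX1, an inhibitor of telomerase, was at -0.38 and ERI1, an exonuclease that trims histone mRNA, at -0.31, and neither was called. INTS10, a subunit of the Integrator complex, had the interval farthest above the median in this group (-0.23, 95% interval -0.42 to -0.04). GATA4, a transcription factor of the heart and foregut, had no count in any library, which allows up to 3 counts over each group.

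The cytoskeletal and centrosomal genes had the lowest median of the groups, -0.75. Of 8 members, 7 were tested and 6 were called lower. MTUS1 encodes a microtubule-associated protein and was the most abundant, at 246 CPM, 266 CPM, 253 CPM and 238 CPM in parental replicates 1 to 4 and 169 CPM, 197 CPM, 176 CPM and 152 CPM in knockout replicates 1 to 4. Its log2 fold change was -0.53 (SE 0.0919). PCM1, the scaffold of centriolar satellites, was at -0.65, BIN3, a membrane-binding BAR domain protein, at -0.75 and PDLIM2, which carries a PDZ and a LIM domain, at -0.53. DMTN, which encodes the actin-bundling protein dematin, was at -0.99, and SORBS3, which encodes the adhesion protein vinexin, at -1.01.

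MYOM2, a protein of the muscle sarcomere, had the most negative value of the 53 tested members, -1.49 (SE 0.357), at a low level (chromosome 8, 2045040 to 2165552, plus strand). It was at 0.932 CPM, 1.07 CPM, 0.670 CPM and 1.06 CPM in parental replicates 1 to 4 and at 0.280 CPM, 0.146 CPM, 0.373 CPM and 0.514 CPM in knockout replicates 1 to 4, which rests on 80 and 28 counts in all. The groups did not overlap. Summed over 8 genes of skeletal muscle, the level was 0.414 CPM, 35.4 CPM, 0.715 CPM and 7.10 CPM in the parental and 0.934 CPM, 0.439 CPM, 0.747 CPM and 17.6 CPM in the knockout tumours, in the same order, so the tumours with the highest muscle sums were parental replicate 2 and knockout replicate 4. The tumours grew in mice, and whether mouse reads were removed is not stated, so reads counted for these markers may come from host cells. The part of muscle RNA, of mouse or human origin, in the MYOM2 values was not tested.

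Signalling and protein turnover genes spread more widely. All 9 were tested, with 5 called lower, 1 called higher and a median of -0.43. SH2D4A encodes an SH2 domain adaptor (chromosome 8, 19313617 to 19396218, plus strand). It was at 112 CPM, 99.9 CPM, 108 CPM and 108 CPM in parental replicates 1 to 4 and at 53.2 CPM, 47.6 CPM, 54.1 CPM and 48.1 CPM in knockout replicates 1 to 4. The level was thus 47.5% of the parental one, with a log2 fold change of -1.08 (SE 0.0808). RHOBTB2, an atypical GTPase that works with CUL3 ubiquitin ligases (chromosome 8, 22987417 to 23020199, plus strand), was at 75.4 CPM, 66.4 CPM, 80.3 CPM and 64.7 CPM in the parental and at 27.9 CPM, 32.6 CPM, 32.1 CPM and 36.5 CPM in the knockout tumours. With -1.15 (SE 0.107) it was the second lowest tested member. Its exons overlap those of genes on the opposite strand, and the strandedness of the counts is not stated.

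FBXO25, a substrate receptor of SCF ubiquitin ligases, was at -0.88. MFHAS1, a leucine-rich repeat protein with a GTPase domain, was nearest the median beside VPS37A (-0.54, SE 0.104), at 57.5 CPM, 58.6 CPM, 56.4 CPM and 64.4 CPM in parental replicates 1 to 4 and 44.9 CPM, 37.3 CPM, 45.4 CPM and 34.8 CPM in knockout replicates 1 to 4. PPP3CC, a catalytic subunit of the phosphatase calcineurin, was at -0.37, and MTMR9, a myotubularin family member without catalytic activity, at -0.32. ARHGEF10, a guanine nucleotide exchange factor, was at -0.0047, but its interval from -0.58 to 0.57 included the median as well as 0, at 0.893 to 1.32 CPM in the parental group and 0.793 to 1.45 CPM in the knockout group.

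DOK2, an adaptor of haematopoietic cells, could not be placed. It was at 0.155 CPM, 2.49 CPM, 1.39 CPM and 0.255 CPM in parental replicates 1 to 4 and at 0.934 CPM, 1.02 CPM, 0.700 CPM and 0.514 CPM in knockout replicates 1 to 4. Parental replicates 2 and 3 were high, and the other 2 parental tumours lay below every knockout tumour. Its log2 fold change of -0.43 had an interval from -1.88 to 1.02 and became 0.38 without parental replicate 2 and 0.28 with limma-voom. The summed level of 8 leukocyte and macrophage markers was 18.3 CPM, 91.2 CPM, 77.0 CPM and 12.5 CPM in the parental and 29.8 CPM, 33.7 CPM, 23.9 CPM and 15.7 CPM in the knockout tumours, so the same 2 parental tumours were highest. Here too the reads may come from mouse host cells, since any removal of mouse reads is not stated. The part of leukocyte RNA, of mouse or human origin, in the DOK2 values was not tested.

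MTMR7, a myotubularin phosphatase of inositol lipids, was the tested member with the highest fold change (chromosome 8, 17298030 to 17413528, minus strand). It was at 4.82 CPM, 2.34 CPM, 1.79 CPM and 2.55 CPM in parental replicates 1 to 4 and at 6.78 CPM, 8.58 CPM, 4.76 CPM and 4.81 CPM in knockout replicates 1 to 4. Parental replicate 1 reached the 2 lowest knockout tumours, so the groups touched. The log2 fold change was 1.12 (SE 0.305). Leaving out parental replicate 1 gave 1.47, and leaving out knockout replicate 2 gave 0.93, with no call in 1 of 16 alternative analyses. The exons of MTMR7 overlap the end of VPS37A on the opposite strand. The strandedness of the counts is not stated, so reads from the shared stretch cannot be told apart. VPS37A was at 52.5 ± 4.67 CPM in the parental group and 36.0 ± 3.80 CPM in the knockout group (SD, n = 4 each), many times the level of MTMR7 in both.

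**Figure D4:**
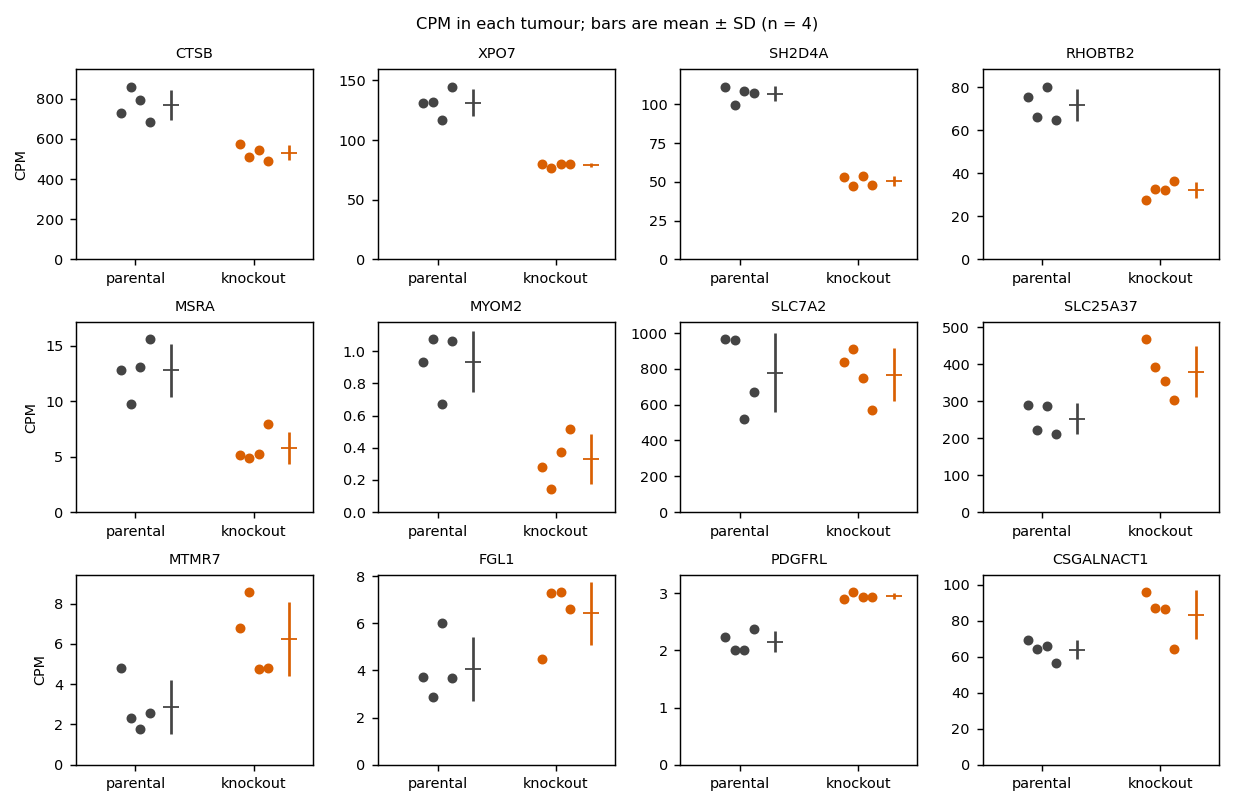
CPM of 12 members in each of 4 parental and 4 knockout tumours, with mean ± SD (n = 4); each axis starts at 0. CTSB, XPO7, SH2D4A, RHOBTB2, MSRA and MYOM2 show knockout tumours below all parental tumours, SLC7A2 shows overlapping groups, and all 4 knockout values of SLC25A37 and PDGFRL lie above the parental ones.

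Metabolic enzymes and carriers departed in both directions. All 9 were tested, with 4 called lower, 2 called higher and a median of -0.34. MSRA, which reduces oxidised methionine (chromosome 8, 10054268 to 10428891, plus strand), was among the lowest members, at 12.8 CPM, 9.77 CPM, 13.1 CPM and 15.6 CPM in parental replicates 1 to 4 and 5.14 CPM, 4.88 CPM, 5.27 CPM and 7.94 CPM in knockout replicates 1 to 4. The groups did not overlap, and the log2 fold change was -1.14 (SE 0.191). NAT1, an arylamine N-acetyltransferase, was at -0.92. AGPAT5, an acyltransferase of phospholipid synthesis, was at -0.73, and PPP1R3B, which brings protein phosphatase 1 to glycogen, at -0.57. MICU3, a regulator of the mitochondrial calcium uniporter, was at -0.34 with wide scatter, at 1.60 CPM, 1.32 CPM, 0.983 CPM and 1.32 CPM in the parental and 1.40 CPM, 1.12 CPM, 0.980 CPM and 0.607 CPM in the knockout tumours.

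The 4 genes of this group above the median included its most abundant ones. SLC7A2, a carrier of cationic amino acids (chromosome 8, 17497088 to 17570573, plus strand), was at 965 CPM, 961 CPM, 521 CPM and 671 CPM in parental replicates 1 to 4 and at 838 CPM, 911 CPM, 751 CPM and 571 CPM in knockout replicates 1 to 4. The groups overlapped throughout, with a log2 fold change of -0.02 (95% interval -0.46 to 0.42), whose sign turned in 6 of 16 alternative analyses. SLC25A37 encodes mitoferrin-1, which imports iron into mitochondria (chromosome 8, 23528805 to 23575463, plus strand). It was at 290.5 CPM, 223 CPM, 288 CPM and 212 CPM in the parental and at 468 CPM, 392 CPM, 356 CPM and 303 CPM in the knockout tumours, with no overlap and a log2 fold change of 0.58 (SE 0.148). CSGALNACT1, which starts chondroitin sulphate chains, was at 0.38 (SE 0.121), with values of 69.0 CPM, 64.3 CPM, 65.9 CPM and 56.5 CPM in the parental and 96.0 CPM, 87.2 CPM, 86.3 CPM and 64.3 CPM in the knockout tumours. Knockout replicate 4 lay within the parental range, and CSGALNACT1 was called in 9 of 16 alternative analyses. SLC39A14, a carrier of zinc, manganese and iron, was at 0.17 (95% interval -0.12 to 0.46).

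Secreted and cell-surface proteins were the group in which no tested member had an interval that included the common shift. Of 8 members, 5 were tested, and their median was 0.21. FGL1, a fibrinogen-like protein secreted by hepatocytes (chromosome 8, 17864380 to 17910365, minus strand), was at 3.73 CPM, 2.88 CPM, 6.03 CPM and 3.66 CPM in parental replicates 1 to 4 and at 4.49 CPM, 7.26 CPM, 7.33 CPM and 6.58 CPM in knockout replicates 1 to 4. Parental replicate 3 stood above knockout replicate 1, and the log2 fold change was 0.65 (SE 0.240), and 0.90 without parental replicate 3. PDGFRL, a platelet-derived growth factor receptor-like protein (chromosome 8, 17576433 to 17644071, plus strand), was at 2.23 CPM, 2.0 CPM, 2.01 CPM and 2.38 CPM in the parental and at 2.90 CPM, 3.02 CPM, 2.94 CPM and 2.94 CPM in the knockout tumours. The groups did not overlap and the log2 fold change was 0.45 (SE 0.168), but neither PDGFRL nor FGL1 was called.

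BMP1, the protease that removes the C-terminal propeptide of procollagens (chromosome 8, 22164736 to 22212326, plus strand), was the most abundant of these. It was at 68.7 CPM, 67.0 CPM, 69.8 CPM and 64.2 CPM in parental replicates 1 to 4 and at 63.3 CPM, 44.7 CPM, 56.8 CPM and 64.6 CPM in knockout replicates 1 to 4, where knockout replicate 4 lay within the parental range. Its log2 fold change was -0.23 (95% interval -0.48 to 0.01). LOXL2, a lysyl oxidase that crosslinks collagen, was at 0.21 (95% interval -0.22 to 0.64), with 23.0 to 33.4 CPM in the parental group and 19.2 to 37.4 CPM in the knockout group. The summed level of 7 fibroblast markers, most of it from the collagen gene COL1A1, ranged from 179 to 607 CPM in the parental group and from 343 to 603 CPM in the knockout group. Within that list LUM, which encodes the matrix proteoglycan lumican, was at 0.104 to 0.638 CPM in the parental group and 10.1 to 15.5 CPM in the knockout group, with no overlap. For the other markers of the list, COL1A1, COL1A2, COL3A1, DCN, PDGFRA and PDGFRB, the groups overlapped. Of these, DCN, PDGFRA and PDGFRB were near the floor, with highest values of 0.44, 0.15 and 0.47 CPM in any tumour. The part of fibroblast RNA, of mouse or human origin, in the BMP1, LOXL2 and PDGFRL values was not tested. CLDN23, a claudin of tight junctions, was the exception of the group with -1.02 (SE 0.168), at 9.06 to 13.8 CPM in the parental group and 4.35 to 5.88 CPM in the knockout group.

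The 3 secreted or surface genes that failed the filter were hardly detected. CSMD1, a very large membrane protein with complement-like domains, had a count of 1 in parental replicates 1 and 2, 4 in replicate 3 and 18 in replicate 4, and none in the knockout tumours. The parental level was 7.91-fold a floor of 3 counts over the knockout group, and 2.73-fold without parental replicate 4, which held 18 of the 24 parental counts. CSMD1 was not fitted, and these ratios leave out the error of the few parental counts, so they set no minimum fold. ANGPT2, a ligand of the endothelial receptor TIE2, had no count in parental tumours and 2, 2, 0 and 1 in knockout replicates 1 to 4. Its exons overlap those of MCPH1 on the opposite strand. GFRA2, a receptor for neurturin, had 0, 5, 3 and 0 counts in the parental and 0, 0, 1 and 0 in the knockout tumours.

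Of the remaining 5 members, 4 were tested and all 4 were called lower with intervals that included the median. KBTBD11, a protein with kelch repeats and a BTB domain, was the most abundant of them, at 53.4 CPM, 54.9 CPM, 54.7 CPM and 44.9 CPM in parental replicates 1 to 4 and 36.3 CPM, 31.9 CPM, 40.2 CPM and 31.3 CPM in knockout replicates 1 to 4, a log2 fold change of -0.57 (SE 0.107). R3HCC1 was at -0.67, ERICH1 at -0.59 and TDRP at -0.44. XKR6 had no count in parental tumours and 0, 1, 2 and 1 in knockout replicates 1 to 4. LZTS1, a leucine zipper protein and the untested cytoskeletal member, had 2, 2, 0 and 0 counts in the parental and 0, 2, 0 and 0 in the knockout tumours.

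Members with unlike values stood directly beside each other. VPS37A (-0.54) and MTMR7 (1.12) overlap at their ends, and SH2D4A (-1.08) is separated by 7.94 kb from CSGALNACT1 (0.38). FGL1 (0.65) lies between MTUS1 (-0.53) and PCM1 (-0.65), with a gap of 12.5 kb to PCM1. R3HCC1 (-0.67) and LOXL2 (0.21) are 0.910 kb apart. SLC39A14 (0.17) is 6.69 kb from PPP3CC (-0.37), which is 3.84 kb from SORBS3 (-1.01). The 4 members MTMR7, SLC7A2, PDGFRL and FGL1, which were all above the median, were interrupted only by MTUS1. LOXL2 and ENTPD4 share annotated exon sequence on the same strand, and how reads from it were counted is not stated. Exons of 24 of the 59 members overlap a gene on the opposite strand.

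Levels per length were compared within the parental tumours, as mean CPM per kb of all annotated exon sequence. Over the 53 tested members they ranged from 0.102 CPM per kb for ARHGEF10 to 103 CPM per kb for CTSB, with a median of 7.02. SLC7A2 was next at 98.6 CPM per kb, followed by SLC25A37 at 31.1, SH2D4A at 25.8 and MTUS1 at 20.9 CPM per kb. In knockout tumours the order of the first 2 was turned, with SLC7A2 at 97.1 and CTSB at 71.5 CPM per kb. For 37 members at an average log2 CPM of 4 or more the median log2 fold change was -0.62, and for the 16 below it was -0.40. The exon length counts every annotated isoform, so these levels are approximate.

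Several members encode 1 subunit of a complex whose other subunits are encoded elsewhere. The values of those genes did not choose the members, but the partners were listed with earlier results of these data known. The 64 tested partners on other chromosomes had a median log2 fold change of -0.077, and 12 were called lower (18.8%) and 2 higher (3.13%) by edgeR with adjustment over all genes, beside 14.1% and 13.0% of all genes tested. The number called was sensitive to the analysis. The 14 called in all became 18 with DESeq2 and 9 with upper-quartile scaling, and 6 without knockout replicate 2, 7 without knockout replicate 3, 8 without parental replicate 1 or knockout replicate 1 and 9 without knockout replicate 4. The 12 called lower became 16 and 6 with those tools, and 4 without knockout replicate 2, 5 without knockout replicate 3, 6 without knockout replicate 1 and 7 without parental replicate 1 or knockout replicate 4.

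The 8p subunit lay below every tested partner in the oligosaccharyltransferase, CCR4-NOT, vacuolar ATPase, centriolar satellite and ESCRT lists. The members were chosen on this contrast, so this order is partly set by the choice and is given as a description. TUSC3 was at -0.66, while 7 oligosaccharyltransferase partners ranged from -0.26 to 0.18, with RPN1 called lower (-0.26, edgeR adjusted p = 0.0369). CNOT7 was at -0.62, and 8 other CCR4-NOT genes ranged from -0.30 to 0.04, with CNOT11 called lower (-0.30, edgeR adjusted p = 0.0414). ATP6V1B2 was at -0.83, and 11 genes of the vacuolar ATPase ranged from -0.34 to 0.25. Of these, ATP6V1D (-0.32, edgeR adjusted p = 0.0200), ATP6V1F (-0.26, 0.0392) and ATP6V1A (-0.34, 0.0428) were called lower. PCM1 was at -0.65, and 6 centriolar satellite genes ranged from -0.086 to 0.38, with BBS4 called higher (0.38, edgeR adjusted p = 0.0152). VPS37A and CHMP7 were at -0.54 and -0.63, and 12 ESCRT genes ranged from -0.37 to 0.19, with CHMP4B (-0.37, edgeR adjusted p = 0.00404), CHMP1B (-0.27, 0.0198) and CHMP3 (-0.23, 0.0372) called lower.

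In RNA polymerase III and Integrator the 8p subunit lay within the range of its partners. POLR3D was at -0.38, and 9 RNA polymerase III genes ranged from -0.46 to 0.45. POLR3C (-0.31, edgeR adjusted p = 0.0118) and POLR3B (-0.46, 0.0130) were among those called lower. INTS10 was at -0.23, and 11 Integrator genes ranged from -0.30 to 0.57, with INTS1 called higher (0.57, edgeR adjusted p = 0.00135) and INTS5 called lower (-0.30, 0.0390). Differences between a member and its partners were not tested.

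Paralogs of the members on other chromosomes moved both ways. Their values did not choose the members either, but the paralogs too were listed with earlier results of these data known. Of 50 tested, 12 were called lower (24.0%) and 8 higher (16.0%), with a median of -0.045, beside 14.1% and 13.0% of all genes tested. Without knockout replicate 2 the number called lower was 7. The smallest p-values among the lower ones belonged to SORBS2 (-1.68, SE 0.102, edgeR adjusted p = 1.17e-06), an adhesion adaptor, to RHOBTB3 (-0.82, SE 0.112, 0.000288) and to DOK1 (-1.33, SE 0.190, 0.000374). SORBS2 fell from 62.9 ± 7.37 to 19.6 ± 1.16 CPM and RHOBTB3 from 228 ± 22.3 to 129 ± 17.0 CPM (SD, n = 4 each), the same direction as SORBS3 and RHOBTB2 on 8p.

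Among the paralogs called higher, CTSL, the lysosomal protease cathepsin L, rose from 124 ± 7.69 to 223 ± 10.1 CPM (0.85, SE 0.0796, edgeR adjusted p = 2.06e-05), while CTSB was lower. PPP1R3C rose from 33.6 ± 7.89 to 134 ± 46.8 CPM (2.0, SE 0.234, edgeR adjusted p = 9.84e-05), while PPP1R3B was lower and PPP1R3D fell (-0.47, 0.0138). MYOM3 rose from 1.39 ± 0.168 to 4.31 ± 0.736 CPM (1.63, SE 0.201, edgeR adjusted p = 0.000138). For TNKS2, MAGT1, CNOT8 and RHOBTB1, paralogs of TNKS, TUSC3, CNOT7 and RHOBTB2, the log2 fold changes were 0.016, -0.058, -0.12 and 0.0097, and none was called. CSGALNACT2 and SLC39A8 were called higher (0.69 and 0.54, edgeR adjusted p = 0.0145 and 0.0409), beside CSGALNACT1 and SLC39A14 on 8p at 0.38 and 0.17.

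**Figure D5:**
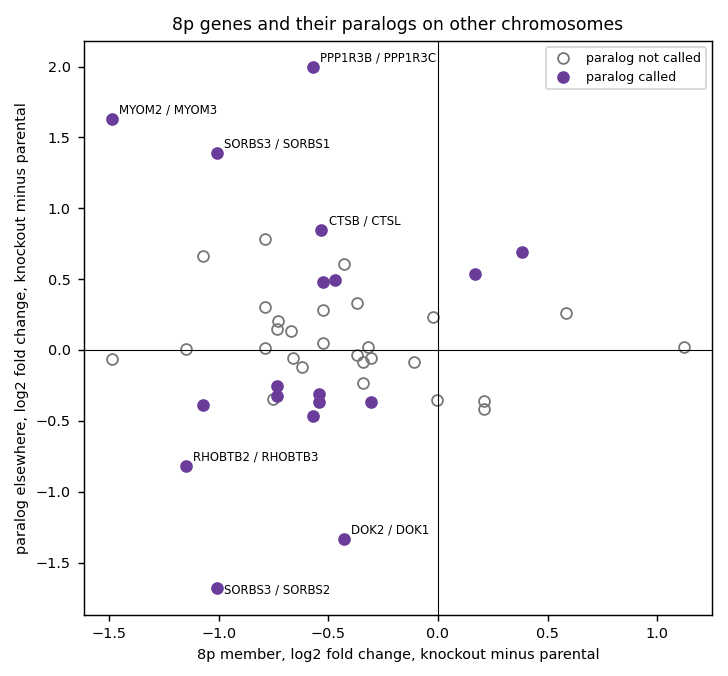
Log2 fold change (knockout minus parental) of 8p members (horizontal axis) against that of each tested paralog of a tested member, on another chromosome (vertical axis); filled points are paralogs called by edgeR over all genes. Most members, which were chosen on this contrast, lie left of 0. Their paralogs lie on both sides of 0, from -1.68 for SORBS2 to 2.0 for PPP1R3C.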

How the data were processed

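From each of 8 tumours the authors deposited a table of unnormalized read counts by gene symbol. RNA was column-purified and made into libraries with an NEBNext Ultra II DNA kit, per the labels. TopHat2 2.1.1, HTSeq 0.11.0 and build hg38 are named in the submitters' processing notes. The annotation, strandedness, counting options and any removal of mouse reads are not given in the sources used here. The 5 summary lines per file were left out; 79.1% to 85.2% of reads were assigned to genes. Genes were filtered by filterByExpr (minimum count 10, minimum total 15), scaled by TMM and fitted with edgeR 4.0.16 in R 4.3.3 (quasi-likelihood F-test, 16219 genes, Benjamini-Hochberg adjustment, call under 0.05). CPM uses TMM-scaled library sizes. Intervals are estimate ± t quantile × SE. Positions are from GENCODE 29 on GRCh38, by symbol (98.0% of tested genes).

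Members, paralogs, complex partners and markers were chosen with earlier results of these data known. Every member is reported; values per tumour are given for SMARCA4, the 4 lowest and 4 highest fold changes, the 2 nearest the median, the most abundant of each of 7 role groups, the 4 widest spreads, and members failing the filter. CSGALNACT1 was added to these after its values were seen. Partners are named when called, up to 3 each way per list; other paralogs named were chosen after seeing values. Alternatives were DESeq2 1.42.0, limma-voom (limma 3.58.1), 3 other scalings, 2 other filters, a call threshold of 0.01, a replicate block and leaving out each tumour. The fit was tested on simulated data. Some genes that these rules name are not reported here.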

Additional observations from a re-analysis of the deposited data

Results flagged for a closer look

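In 108 sets of 4 tumours (each group of SMARCA4 and of the 53 tested members), 5 had a highest or lowest tumour that stood apart from the other 3; chance flags about 1 set in 20. Knockout replicate 4 accounted for 3 of them. TNKS was at 35.6 CPM there, below the other knockout tumours at 45.0 to 46.0 CPM. MSRA was at 7.94 CPM there, above 4.88 to 5.27 CPM, and R3HCC1 at 32.2 CPM, above 28.0 to 28.4 CPM. ERICH1 was at 10.0 CPM in knockout replicate 3, below 12.7 to 13.1 CPM. KBTBD11 was at 44.9 CPM in parental replicate 4, below 53.4 to 54.9 CPM.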

How the results depend on the processing

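The median log2 fold change of the members ran from -0.58 to -0.51 over the alternative tests, scalings, filters and the replicate block, and from -0.59 to -0.52 with 1 tumour left out; the mean in place of the median was -0.48. Members called lower numbered 33 to 37 and 33 to 36 (35 in the reported fit), and those called higher 3 to 4 and 1 to 3, with 1 without knockout replicate 2. Of the 16 alternatives, all in which a member was tested gave the same sign in 49 of 53 members. ARHGEF10, ZDHHC2, SLC7A2 and DOK2 were the exceptions. ARHGEF10, MYOM2, MICU3 and DOK2 were tested in 15, because the filter at an average log2 CPM of at least 1 left them out. Of the 38 members called, 34 were called in every alternative that tested them, and TDRP, MTMR7, CSGALNACT1 and PPP3CC were not. Complex partners called numbered 9 with upper-quartile scaling, 7 with the replicate block and 6 to 14 with 1 tumour left out (14 in the reported fit); those called lower numbered 6, 5 and 4 to 12 (12 in the reported fit). Paralogs called numbered 14 to 22 with 1 tumour left out (20 in the reported fit). The cause of these changes was not tested. Tumours that share a replicate number shared no deviation (correlation across genes -0.19 to 0.086), so the replicate block pairs numbers only. The 6 members that failed the filter had few or no counts, and the part of sequencing depth in this was not tested.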
